A study of Mus musculus with 9 samples.

Results

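Heat shock proteins and their DNAJ cochaperones were followed across 3 kinds of mouse heart cell. A gene belonged to the set when its symbol began with Hspa, Hspb, Hspd, Hspe, Hsph, Hsp90, Hspbp or Dnaj, or was Cryab, Hsf1, Bag3 or Stip1, and when at least 1 of its probes was detected on all 3 arrays of at least 1 group. Of 71 genes on the array that matched by name, 55 passed this filter, out of 10024 genes tested in all, and 45 of the 55 were detected on all 9 arrays. The 16 that did not pass were Dnaja1, Dnajb3, Dnajb7, Dnajb8, Dnajb13, Dnajb14, Dnajc5b, Dnajc5g, Dnajc6, Dnajc9, Dnajc14, Hspa12a, Hspa13, Hspa14, Hspb9 and Hspb11. The transcription factor Hsf1 and the HSP90 gene Hsp90ab1 had no probe with a single gene name and were not analysed here.

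Chaperones bind proteins that are unfolded or not yet folded. HSP70 proteins bind and release short hydrophobic stretches in a cycle driven by ATP, DNAJ proteins deliver the client and start ATP hydrolysis through their J domain, and HSP110 proteins, BAG proteins and HSPBP1 release the nucleotide. HSP90 completes the folding of kinases and steroid receptors, and the chaperonin HSPD1 with its lid HSPE1 encloses proteins inside mitochondria. Small heat shock proteins hold unfolded proteins without ATP, and in heart muscle several of them, with BAG3, sit at the Z-disc of the sarcomere. On heat or other protein damage, HSF1 binds heat shock elements, inverted repeats of GAA and TTC, and switches on genes such as Hspa1a, Hspa1b and Dnajb1.

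All mice carried the reporter allele Gt(ROSA)26Sortm1(EYFP)Cos, from which Cre recombinase switches on yellow fluorescent protein (YFP), in a B6.129X1 strain with C57BL/6J as its background. The first group was 3 samples of c-kit-positive, CD45-negative cardiac stem cells (eCSCs) harvested at passage 4 in culture and labelled undifferentiated. The second was 3 samples of YFP-positive cardiomyocytes, described as descendants of c-kit-positive cells that a lentivirus with c-kit/cre had recombined, sorted by flow cytometry from the left ventricular apex. That tissue was taken 28 days after 1 subcutaneous injection of isoproterenol (200 mg/kg), a beta-adrenergic agonist that damages heart muscle. The third was 3 samples of normal adult cardiomyocytes from mice of that strain. Sample titles describe the YFP-positive cells as in vitro, against the account of sorting from the heart, and all 9 samples carry the isoproterenol protocol, so whether the donors of the adult cells were injected is not settled. Nothing in the labels ties a sample to 1 animal or culture, so the p-values measure only how far these samples spread, and that spread may be technical.

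Each array detected between 15326 and 19048 of 45281 probes, and the number of arrays limits the precision. Of the 7 cardiomyocyte markers, 6 were not detected on any eCSC array, and the mean log2 signal of the 7 lay between 13.47 and 13.72 in YFP-positive and between 13.72 and 13.87 in adult cardiomyocytes. Kit, which codes for c-kit itself, was not detected on any eCSC array and read 8.68, 7.4 and 8.66 in the YFP-positive cells. The second YFP-positive array stood apart, with a mean correlation of 0.922 with the adult arrays against 0.876 and 0.880 for the other YFP-positive arrays. Markers of other cells also differed between both cardiomyocyte groups: 7 of 8 endothelial, 6 of 6 fibroblast, 4 of 7 leukocyte and 4 of 4 erythroid genes tested were higher in the YFP-positive cells, as were 6 of 7 proliferation genes (limma, adjusted p under 0.05). The endothelial gene Kdr was lower (-0.79 ± 0.21, adjusted p = 0.00605), while none of 4 smooth muscle and pericyte genes passed that test and none had an unadjusted p under 0.05. The endothelial mean was 9.35 to 9.50 on the YFP-positive arrays, 7.84 to 8.25 on the adult arrays and 5.07 to 5.18 on the eCSC arrays, and the fibroblast means were 8.65 to 9.12, 6.31 to 6.37 and 5.69 to 5.93. The erythroid means were 9.25 to 10.54, 5.57 to 6.18 and 4.40 to 4.56, all 4 genes being undetected in eCSCs, and the leukocyte means were 7.49 to 8.12, 6.46 to 7.01 and 4.65 to 4.98. Proliferation genes were highest in eCSCs, with means of 9.30 to 9.66 in eCSCs, 6.86 to 7.26 in YFP-positive and 4.83 to 5.01 in adult cardiomyocytes. The part of these cell types in the differences below was not tested.

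Levels are given as background-corrected, quantile-normalized log2 signals, in the order of replicates 1, 2 and 3, and differences as log2 values with the standard error (SE) of the fit over all 9 arrays, 3 in each group. Against eCSCs, 23 of the 55 members were higher and 15 lower in YFP-positive cardiomyocytes (limma, Benjamini-Hochberg adjusted p under 0.05 over all 10024 genes), where 34.4% of all genes were higher and 38.6% lower. In adult cardiomyocytes 26 were higher and 14 lower than in eCSCs, with 35.8% and 39.4% of all genes as the background. These comparisons share the eCSC arrays. Between the cardiomyocyte groups, 6 members were higher and 33 lower in the YFP-positive cells, against 22.8% and 27.7% of all genes. The median member difference was 0.21, 0.42 and -0.66 in the order of these comparisons, and the median over all genes was -0.10, -0.05 and -0.08. The shares of all genes are also the background for the counts of single roles and gene lists below.

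How many members lay below the adult level depended on how the arrays were scaled. With median scaling in place of quantile normalization, 6 members were higher and 13 lower in YFP-positive than in adult cells, against 22.5% and 8.27% of all genes under that scaling. With no normalization 6 were higher and 9 lower, against 22% and 4.78% of all genes. All 19 and all 15 of these calls were also made with quantile normalization and in the same direction. Against eCSCs, median scaling gave 17 higher and 22 lower for YFP-positive cells (24.8% and 46.3% of all genes) and 17 higher and 23 lower for adult cells (21.5% and 51.7%). With no normalization the members split into 17 and 22 (22.4% and 45.9% of all genes) and into 16 and 23 (18.7% and 53.2%). Scaling on the probes detected on all 9 arrays gave 24 higher and 14 lower for YFP-positive cells against eCSCs (43.9% and 28.5% of all genes), 31 and 9 for adult cells against eCSCs (47.6% and 29.3%), and 5 and 31 between the cardiomyocytes (20% and 25.7%). Median scaling moved the median over all genes to -0.49 and -0.68 for the comparisons with eCSCs and to 0.16 between the cardiomyocytes. Under all 4 scalings, 9 members were lower in YFP-positive than in adult cells (Cryab, Hspb6, Hspb7, Hspb8, Hspa1l, Dnaja3, Dnajb2, Dnajc16 and Dnajc28) and 5 were higher (Hspa1a, Hspa1b, Hspa2, Dnajb1 and Hsp90aa1). Hspa1a and Hspa1b passed the detection filter only through the YFP-positive arrays, which favoured their calls.

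**Figure D1:**
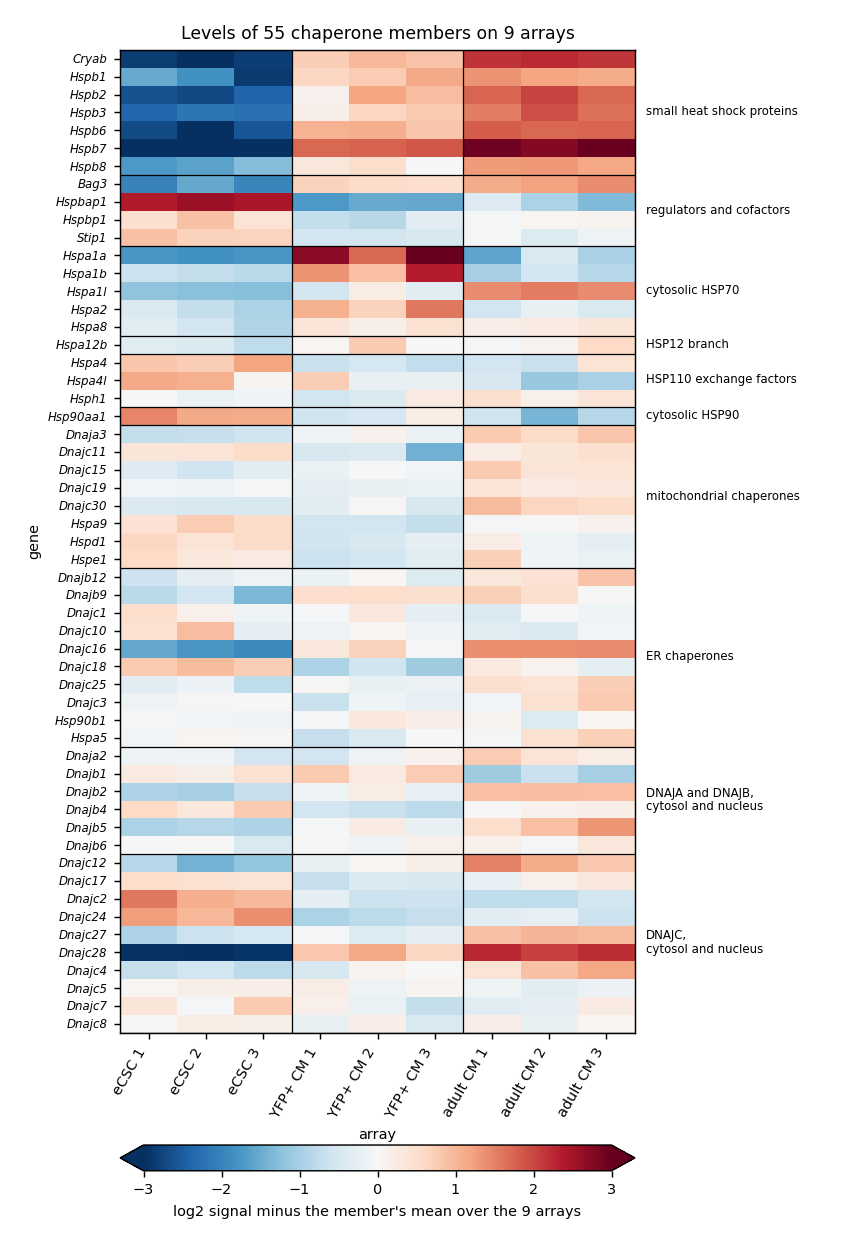
Levels of the 55 members (rows, grouped by role) on the 9 arrays (columns), as the log2 signal minus the member's mean over the arrays, with colours limited to 3 in either direction. The 7 small heat shock proteins run from blue in the eCSCs to red in the adult cardiomyocytes, and Hspa1a and Hspa1b are red only on the 3 YFP-positive arrays.

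The small heat shock proteins were all higher in both cardiomyocyte groups than in the stem cells, 7 of 7, with median differences of 3.32 in YFP-positive and 4.39 in adult cells. These were the largest medians of any role among the members. All 7 kept this call under the 4 scalings. Hspb3 and Hspb7 passed the detection filter only through the cardiomyocyte arrays, so the filter favoured their calls against eCSCs. In each of the 7 genes the adult mean was above the YFP-positive mean, and 6 of the 7, all but Hspb1, passed the test between both cardiomyocyte groups (4 of 7 with no normalization). Fewer cells of a type and less RNA per cell cannot be told apart in such bulk samples.

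Hspb7, which codes for a small heat shock protein of heart and skeletal muscle, read 4.25, 4.35 and 4.22 in eCSCs, where it was not detected on any array. It read 10.66, 10.72 and 10.81 in YFP-positive and 11.87, 11.71 and 11.92 in adult cardiomyocytes. The deposited signals of its probe were 94.5, 98.9 and 104.3, then 1524, 1090.8 and 1832.6, then 3586.6, 2887.9 and 2694.5. The groups did not overlap, and the level was at least 63.4-fold (limma adjusted p = 1.45e-13) and at least 136-fold (adjusted p = 2.25e-14) above eCSCs. These bounds set the mean of the bright group against the lowest detected signal of the arrays on which the probe was not detected. Hspb7 passed the detection filter only through the cardiomyocyte arrays. The filter thus favoured its differences from eCSCs, and their p-values give no separate support. Between the cardiomyocytes the difference was -1.10 ± 0.15 (adjusted p = 6.54e-05).

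Hspb3, another muscle member, was likewise undetected in eCSCs (4.27, 4.45 and 4.38). It too passed the detection filter only through the cardiomyocyte arrays, which favoured its differences from eCSCs. Its levels were 6.80, 7.27 and 7.4 in YFP-positive and 8.14, 8.55 and 8.27 in adult cells, at least 5.32-fold and at least 11.9-fold above eCSCs. Every adult array was above every YFP-positive array (-1.16 ± 0.19, adjusted p = 0.000225). Hspb2, which binds the myotonic dystrophy kinase DMPK and whose gene lies head to head with Cryab, read 5.04, 4.95 and 5.26, then 7.79, 8.83 and 8.58, then 9.39, 9.67 and 9.37. It was thus detected in eCSCs but 9.96-fold and 20.9-fold higher in the YFP-positive and adult cells.

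Cryab, which codes for alphaB-crystallin, the chaperone of desmin filaments, read 7.93, 7.31 and 7.95 in eCSCs, 11.52, 11.78 and 11.64 in YFP-positive and 12.94, 13.03 and 12.93 in adult cardiomyocytes. It was 15.1-fold and 37.8-fold above eCSCs, and the difference of -1.32 ± 0.19 between the cardiomyocytes was larger than the spread of either group (adjusted p = 8.22e-05). Hspb6, which codes for HSP20, read 10.06, 9.71 and 10.16 in eCSCs, 13.78, 13.82 and 13.58 in YFP-positive and 14.56, 14.47 and 14.49 in adult cells. Its differences from eCSCs were 3.75 ± 0.17 and 4.53 ± 0.17. Hspb8, the partner of BAG3 in the disposal of damaged filamin, read 10.35, 10.47 and 10.77, then 12.40, 12.59 and 12.07, then 13.35, 13.36 and 13.22, with no overlap between groups and differences of 1.82 ± 0.18, 2.78 ± 0.18 and, between the cardiomyocytes, -0.96 ± 0.18.

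Hspb1, which codes for the widely expressed HSP25 of the mouse, behaved differently only in the last comparison. Its levels were 8.30, 7.99 and 6.93 in eCSCs, 10.44, 10.58 and 10.95 in YFP-positive and 11.16, 10.99 and 10.93 in adult cells, 7.57-fold and 9.78-fold above eCSCs. The cardiomyocyte groups overlapped, and the difference of -0.37 ± 0.28 did not pass the test (adjusted p = 0.294).

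Bag3, which codes for the cochaperone that links HSP70 to the small heat shock proteins and to autophagy, moved in the same order. It read 9.76, 10.23 and 9.82 in eCSCs, 12.46, 12.31 and 12.26 in YFP-positive and 12.89, 12.97 and 13.19 in adult cells. Bag3 was 5.32-fold and 8.47-fold above eCSCs, and its difference of -0.67 ± 0.18 between the cardiomyocytes (adjusted p = 0.00638) was -0.61 with median scaling and no longer passed (adjusted p = 0.0635). Of the 6 other BAG and CHIP genes tested, 2 were lower and none higher in YFP-positive cells than in eCSCs, Bag4 with -1.47 ± 0.21 and Bag5 with -0.60 ± 0.20, and 2 genes had an unadjusted p under 0.05. Over all genes, 38.6% were lower and 34.4% higher in that comparison. In adult cells 2 of the 6 were lower and 1 higher than in eCSCs, against 39.4% and 35.8% of all genes.

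**Figure D2:**
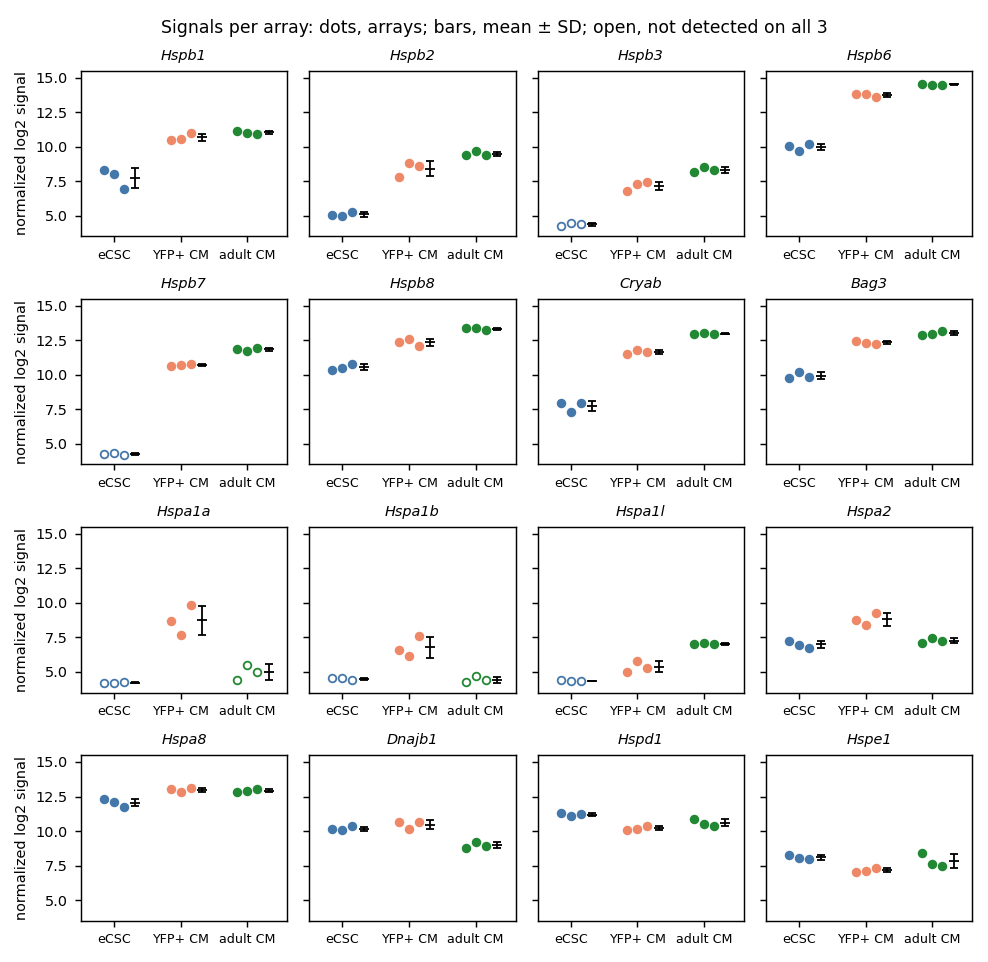
Normalized log2 signal (y axis) of 16 members on each array, by cell group. Each dot is 1 of 3 arrays, the bar is the mean ± SD, and open dots mark groups in which the probe was not detected on all 3 arrays. Hspb7 lies between 4.22 and 4.35 in eCSCs and between 10.66 and 11.92 in the cardiomyocytes, and Hspa1a between 7.70 and 9.83 on the YFP-positive arrays alone.

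The promoters of the members were read from RefSeq (GRCm38.p6), 250 bases before to 50 bases after each annotated start, for the 44 members in that table. The search was for the 2-unit heat shock elements GAANNTTC and TTCNNGAA, each its own reverse complement, and for 3-unit forms in which a further unit follows after 2 bases and which contain the 2-unit form. At least one 2-unit element was found for 14 of 44 members (31.8%), against 17% of 27025 genes in the table. Among the 8106 genes in it that were also tested here, the share was 13.8%. Among the small heat shock proteins 4 of the 5 with a promoter held one, namely Hspb1, Hspb3, Hspb6 and Hspb8. The stretches before the start of Hspb1 (chr5:135887782-135887849, plus strand), the widely expressed gene, and of Hspb6 (chr7:30553161-30553208, plus strand), which codes for HSP20, are shown with the elements in capitals.
Hspb1: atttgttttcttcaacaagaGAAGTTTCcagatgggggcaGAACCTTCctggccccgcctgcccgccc
Hspb6: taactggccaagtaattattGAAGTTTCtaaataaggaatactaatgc
The Hspb1 elements lie at bases -117 to -110 and -97 to -90 from the start, and the one of Hspb6 at -120 to -113. A match of letters is a description and not a site of binding.

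**Figure D3:**
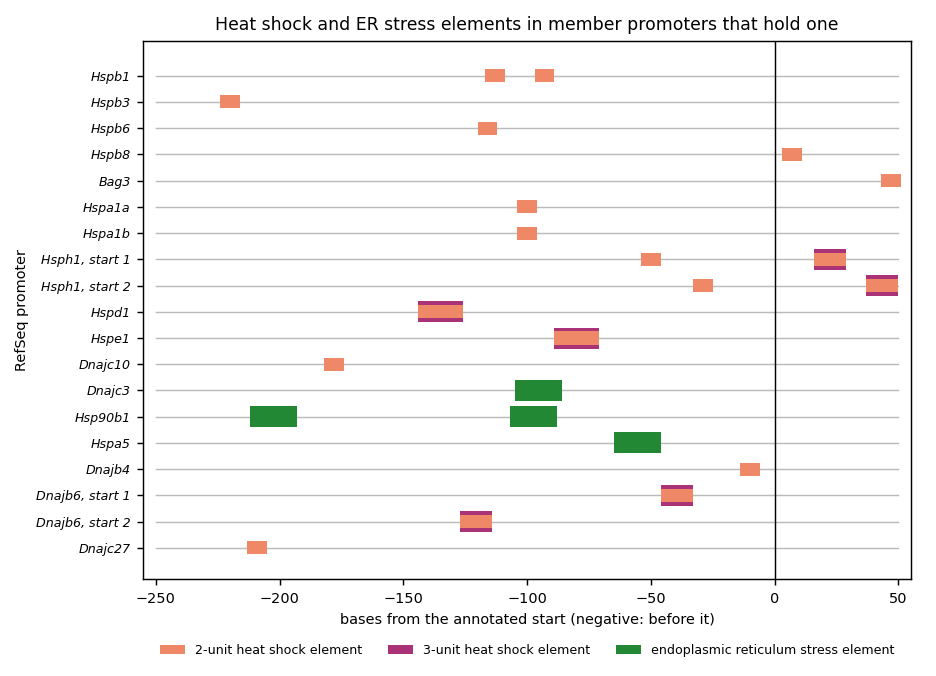
Positions of heat shock elements and endoplasmic reticulum stress elements (coloured blocks) in the RefSeq promoters of members that hold one, in bases from the annotated start (x axis). The elements of Hspa1a and Hspa1b lie at the same place, -104 to -97, and the 3-unit form appears for Hspd1, Hspe1, Hsph1 and Dnajb6.

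The inducible genes of the HSP70 family were higher in YFP-positive cells than in both other groups. Hspa1a and Hspa1b, which code for nearly identical stress-induced HSP70 proteins, were not detected on any eCSC array. Hspa1a read 4.22, 4.17 and 4.24 in eCSCs, 8.69, 7.70 and 9.83 in YFP-positive and 4.40, 5.53 and 5.0 in adult cells, where 2 of 3 arrays detected it. The deposited signals were 92.6, 87.3 and 106.4, then 483.1, 204.3 and 994.1, then 96, 112.9 and 99.8. Every YFP-positive array was above every other array, although these arrays spread more (SD 1.06) than those of the other groups. The level was at least 16-fold above eCSCs (limma adjusted p = 1.49e-07) and 13.6-fold above adult cells (3.76 ± 0.40, adjusted p = 5.06e-06). Without the second YFP-positive array, the lowest of the 3, the last difference was 4.28. Hspa1a passed the detection filter only through the YFP-positive arrays, so the filter favoured this result and its p-values give no separate support. The adult level was near the limit of detection, the lowest detected signals of those arrays being 4.85, 4.83 and 4.91. A dimmer probe of Hspa1a, detected on the YFP-positive arrays only, gave smaller log2 differences, 2.65 from eCSCs and 2.61 from adult cells. The size of the change is therefore uncertain.

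Hspa1b read 4.59, 4.53 and 4.44 in eCSCs, 6.59, 6.14 and 7.59 in YFP-positive and 4.25, 4.68 and 4.38 in adult cells, and was detected on the 3 YFP-positive arrays only. It was at least 4.08-fold above eCSCs and at least 3.77-fold above adult cells (adjusted p = 5.31e-06 and 1.60e-05). Hspa1b too passed the detection filter only through the YFP-positive arrays, so its p-values give no separate support either. The ranking of the YFP-positive arrays was that of Hspa1a. Copies as close as these can share hybridisation, so the separate values of Hspa1a and Hspa1b are uncertain. Their promoters were identical at 296 of 300 bases (98.7%), and the stretches around the shared element, both on the minus strand, are shown because these members moved together (chr17:34972233-34972280 and chr17:34959315-34959362, element in capitals).
Hspa1a: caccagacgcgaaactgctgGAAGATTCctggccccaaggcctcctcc
Hspa1b: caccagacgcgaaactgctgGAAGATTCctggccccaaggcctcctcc

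Hspa2, known for its role in male germ cells but present in many tissues, was also highest in the YFP-positive cells. It read 7.26, 6.98 and 6.73 in eCSCs, 8.75, 8.39 and 9.27 in YFP-positive and 7.12, 7.46 and 7.23 in adult cells, with differences of 1.81 ± 0.22 from eCSCs and 1.53 ± 0.22 from adult cells (adjusted p = 4.75e-06 and 8.77e-05). Dnajb1, which codes for HSP40, the stress-induced J protein of HSP70, read 10.13, 10.05 and 10.33 in eCSCs, 10.65, 10.13 and 10.63 in YFP-positive and 8.80, 9.21 and 8.88 in adult cells. It was thus the adult cells that stood apart: Dnajb1 was 2.84-fold higher in YFP-positive than in adult cells (adjusted p = 2.67e-05) and differed by -1.21 ± 0.19 between adult cells and eCSCs, while YFP-positive cells and eCSCs overlapped (0.30 ± 0.19, adjusted p = 0.172, 0.47 with adjusted p = 0.0382 without the second YFP-positive array, and -0.42 with adjusted p = 0.242 with median scaling).

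Hspa1l, a relative of Hspa1a that is expressed mainly in testis and lies opposite it on chromosome 17, had the cardiomyocyte groups in the reverse order. It was undetected in eCSCs (4.38, 4.34 and 4.31), read 5.02, 5.80 and 5.26 in YFP-positive cells and was highest in adult cells (7.0, 7.12 and 7.01), at least 4.92-fold above eCSCs and -1.68 ± 0.19 for YFP-positive against adult cells (adjusted p = 1.03e-05). Hspa8, the constitutive HSC70, read 12.29, 12.10 and 11.76 in eCSCs, 13.03, 12.82 and 13.11 in YFP-positive and 12.85, 12.91 and 13.02 in adult cells. The differences of 0.93 ± 0.18 and 0.87 ± 0.18 from eCSCs passed the test but became 0.41 and 0.27 with median scaling and no longer passed (adjusted p = 0.142 and 0.332). A different probe of Hspa8 gave the opposite result in adult cells, -0.61 against eCSCs (adjusted p = 0.0294). It gave -0.004 in YFP-positive cells against eCSCs and 0.60 between the cardiomyocytes. The third probe gave 1.29 in adult and 1.79 in YFP-positive cells against eCSCs, so the result of Hspa8 differs between probes in both groups. Of the 5 cytosolic HSP70 members, 3 were higher and 1 lower in YFP-positive than in adult cells under each of the 4 scalings. The 3 include Hspa1a and Hspa1b, which the detection filter favoured, so this count gives no separate support. Hspa12b, of a distant branch of the family found in endothelium, read 6.74, 6.67 and 6.34, then 7.15, 7.89 and 7.12, then 7.05, 7.21 and 7.70. Its differences from eCSCs were 0.80 ± 0.23 and 0.74 ± 0.23, and neither passed with median scaling (0.34 and -0.10, where the sign turned); the adult call was also lost without the third adult array (0.55).

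Immediate early genes, which respond within minutes to growth factors, stress or tissue dissociation, moved with Hspa1a and Hspa1b. All 9 of those tested were higher in YFP-positive cells than in adult cells under each scaling, and all 9 were higher than in eCSCs (6 of 9 with median scaling or no normalization). Their mean was 10.75 to 11.18 on the YFP-positive arrays, 7.39 to 8.11 on the eCSC arrays and 7.25 to 7.81 on the adult arrays. Fos read 11.61, 11.52 and 11.79 in YFP-positive cells and at most 6.81 elsewhere. How far the levels of Hspa1a, Hspa1b, Hspa2 and Dnajb1 were tied to these genes was not tested.

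**Figure D4:**
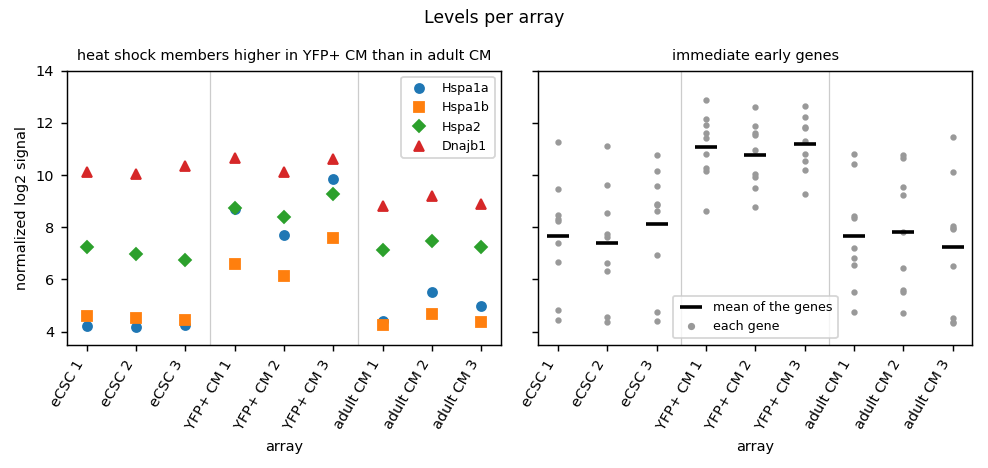
Normalized log2 signal (y axis) on each array of the 4 heat shock members that were higher in YFP-positive than in adult cells under every scaling and in the HSP70 and J protein families (left), and of 9 immediate early genes with their mean as a bar (right). The mean of the early genes lies between 10.75 and 11.18 on the YFP-positive arrays and at 8.11 or below on the others, and Hspa1a is lowest among the YFP-positive arrays on the second.

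Of the 3 HSP110 exchange factors, 1 was lower in YFP-positive cells and 2 in adult cells than in eCSCs, where 38.6% and 39.4% of all genes were lower. The cytosolic HSP90 gene Hsp90aa1 was lower in both. Hsp90aa1, the inducible HSP90, read 9.05, 8.72 and 8.68 in eCSCs, 6.97, 7.08 and 7.81 in YFP-positive and 6.98, 6.19 and 6.72 in adult cells, 2.89-fold and 4.55-fold below eCSCs. Between the cardiomyocytes it was 0.65 ± 0.25 higher in YFP-positive cells (adjusted p = 0.0398). The groups overlapped, and the call was lost without the third YFP-positive array (0.39, adjusted p = 0.207), without the second adult array (0.43, adjusted p = 0.186), without the third adult array (0.70, adjusted p = 0.0614) and without the second eCSC array (0.65, adjusted p = 0.0529). Hspa4, the general exchange factor of this family, read 6.52, 6.43 and 6.88, then 5.02, 5.16 and 4.94, then 5.11, 5.01 and 6.10, and was lower than in eCSCs in both cardiomyocyte groups (-1.57 ± 0.25 and -1.20 ± 0.25).

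Hspa4l, its close relative, read 6.59, 6.52 and 5.54 in eCSCs, 6.19, 5.22 and 5.22 in YFP-positive and 4.97, 4.30 and 4.48 in adult cells, where 1 array detected it. The adult level was -1.63 ± 0.31 against eCSCs. The YFP-positive level of -0.67 ± 0.31 did not pass (adjusted p = 0.0634) but did with median scaling (-0.87, adjusted p = 0.0271), without the third eCSC array (-1.01, adjusted p = 0.00913) and without the first YFP-positive array (-1.0, adjusted p = 0.0084). Its difference of 0.96 ± 0.31 between the cardiomyocytes (adjusted p = 0.0189) was lost without the first YFP-positive (0.64), the second adult (0.82) or the third adult array (0.91). Hsph1, the stress-induced HSP105, read 9.23, 9.03 and 9.11 in eCSCs, 8.68, 8.80 and 9.49 in YFP-positive and 9.70, 9.37 and 9.6 in adult cells. Neither comparison with eCSCs passed the test (-0.13 ± 0.21 and 0.43 ± 0.21). The YFP-positive difference passed with median scaling (-0.82, adjusted p = 0.0317), and the adult difference, in groups that did not overlap, passed with scaling on the probes detected on all 9 arrays (0.67, adjusted p = 0.0106) and without the third YFP-positive array (0.43, adjusted p = 0.0318). The difference of -0.57 ± 0.21 between the overlapping cardiomyocyte groups (adjusted p = 0.0359) was lost when the first YFP-positive (-0.41), the second YFP-positive (-0.47), the first adult (-0.50) or the third adult array (-0.54) was left out and with median scaling (-0.42).

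The cofactors other than Bag3 were all lower in both cardiomyocyte groups than in eCSCs. Hspbap1, a JmjC-domain protein that binds HSPB1, showed the greatest fall among the 55 members: it read 8.81, 9.02 and 8.89 in eCSCs, 4.71, 4.93 and 4.90 in YFP-positive and 6.05, 5.48 and 5.12 in adult cells. It was 16.7-fold and 10.3-fold below eCSCs, and its difference of -0.70 ± 0.21 between the cardiomyocytes (adjusted p = 0.0135) was -0.45 without the first adult array (adjusted p = 0.0685) and -0.32 with median scaling. The YFP-positive level of Hspbap1 was near the limit of detection, the lowest detected signals of those arrays being 4.59, 4.75 and 4.60. The sizes of the differences that involve it are therefore uncertain. Stip1, which codes for HOP, the bridge from HSP70 to HSP90, read 11.09, 10.90 and 10.89, then 9.64, 9.67 and 9.75, then 10.17, 9.80 and 10.06. It was 2.41-fold and 1.93-fold below eCSCs, with no call between the cardiomyocytes (-0.32 ± 0.16, adjusted p = 0.118). Hspbp1, an exchange factor that slows HSC70, read 7.93, 8.34 and 7.86 in eCSCs, 6.75, 6.62 and 7.13 in YFP-positive and 7.42, 7.53 and 7.57 in adult cells. Its differences were -1.21 ± 0.19 and -0.54 ± 0.19 from eCSCs, the second being lost without the second eCSC array (-0.39) or the first adult array (-0.49), and -0.68 ± 0.19 between the cardiomyocytes (-0.24 and lost with median scaling).

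Among 16 other HSP90 cochaperones, 3 were higher and 7 lower in YFP-positive cells than in eCSCs, and 5 were higher and 7 lower in adult cells. Over all genes, 34.4% were higher and 38.6% lower in YFP-positive cells, and 35.8% and 39.4% in adult cells. Unc45b, the chaperone that folds muscle myosin, was undetected in eCSCs and at least 53-fold higher in YFP-positive and at least 67.8-fold higher in adult cells. Ppid, the cyclophilin that binds HSP90, was lower in both (-2.03 ± 0.17 and -2.16 ± 0.17), and so was St13, which codes for the HSP70-interacting protein HIP (-1.57 ± 0.18 and -1.21 ± 0.18). Of the heat shock factors and their binder, 3 genes were tested: Hsbp1, the heat shock factor binding protein, was higher in both cardiomyocyte groups (0.79 ± 0.18 and 1.07 ± 0.18), Hsf4 was at least 1.91-fold higher in adult cells, and Hsf2 did not pass in either (-0.48 ± 0.27 and 0.02 ± 0.27).

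Of the 8 members grouped here as mitochondrial, 4 were lower and 1 higher in YFP-positive cells than in eCSCs, and 2 were lower and 4 higher in adult cells. The shares of all genes were 38.6% lower and 34.4% higher in YFP-positive cells, and 39.4% and 35.8% in adult cells. Hspa9, which codes for mortalin, the HSP70 of the matrix, read 13.78, 14.10 and 13.89 in eCSCs, 12.79, 12.76 and 12.62 in YFP-positive and 13.30, 13.35 and 13.47 in adult cells. The groups did not overlap, and the differences were -1.20 ± 0.16, -0.55 ± 0.16 and, between the cardiomyocytes, -0.65 ± 0.16. The adult difference vanished with scaling on the probes detected on all 9 arrays (0.03, adjusted p = 0.885). Hspd1, the chaperonin HSP60, read 11.29, 11.07 and 11.24, then 10.07, 10.18 and 10.37, then 10.88, 10.53 and 10.39, with differences of -0.99 ± 0.18 and -0.60 ± 0.18 from eCSCs. The adult difference became -0.25 and lost its call with scaling on the probes detected on all 9 arrays (adjusted p = 0.262). A different probe of Hspd1 gave -2.65 and -2.48.

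Hspe1, the lid HSP10, read 8.29, 8.01 and 7.95 in eCSCs, 7.05, 7.13 and 7.32 in YFP-positive and 8.40, 7.58 and 7.50 in adult cells. It was lower in YFP-positive cells than in eCSCs (-0.92 ± 0.23, adjusted p = 0.00205), and the adult difference of -0.26 ± 0.23 passed without the first adult array (-0.55, adjusted p = 0.0192) and with median scaling (-1.20, adjusted p = 0.00421). Between the cardiomyocytes the difference of -0.66 ± 0.23 (adjusted p = 0.0244) was lost without that adult array (-0.37) or without the first or second YFP-positive array (-0.61 and -0.64). Hspd1 and Hspe1 lie head to head, and their promoters share 1 stretch (chr1:55088039-55088096), minus strand for Hspd1 and plus strand for Hspe1, with overlapping 3-unit heat shock elements in capitals, shown because both genes were lower in YFP-positive cells than in eCSCs.
Hspd1: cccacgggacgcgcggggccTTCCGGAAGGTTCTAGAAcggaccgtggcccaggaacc
Hspe1: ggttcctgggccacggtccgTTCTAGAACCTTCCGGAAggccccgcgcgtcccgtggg
The 3-unit form was found for 4 of 44 members (9.09%), Hspd1, Hspe1, Hsph1 and Dnajb6, against 0.662% of all genes in the table and 0.506% of those tested here.

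Dnaja3, the main J protein of the matrix, read 10.21, 10.23 and 10.34 in eCSCs, 10.83, 11.05 and 10.72 in YFP-positive and 11.72, 11.50 and 11.75 in adult cells. The adult cells were 2.63-fold above eCSCs, a call that held under each scaling, whereas the YFP-positive difference of 0.61 ± 0.16 turned to -0.10 with median scaling. Dnajc30, a J protein linked to complex I, read 8.89, 8.84 and 8.84, then 8.99, 9.35 and 8.84, then 10.27, 9.97 and 9.87, so that only the adult arrays stood apart (1.18 ± 0.18 from eCSCs, 0.37 and lost with median scaling). Dnajc15 and Dnajc19, J proteins of the import motor, were higher in adult cells than in eCSCs with quantile normalization (0.97 ± 0.17 and 0.42 ± 0.15), calls that median scaling did not keep (0.28 and -0.20). Dnajc11, of the complex that bridges both mitochondrial membranes, read 7.48, 7.50 and 7.66 in eCSCs, 6.63, 6.68 and 5.67 in YFP-positive and 7.35, 7.49 and 7.6 in adult cells. It was lower in YFP-positive cells than in both others (-1.22 ± 0.24 and -1.15 ± 0.24), and the second of these was lost with median scaling (-0.68, adjusted p = 0.0722). In all, 7 of 8 mitochondrial members were lower in YFP-positive than in adult cells, 3 with median scaling and 1 with no normalization. The shares of all genes lower there were 27.7%, 8.27% and 4.78% in that order. Of 6 other mitochondrial chaperones and proteases, 5 were lower in YFP-positive than in adult cells, among them Clpb with -1.20 ± 0.20, Grpel1, the exchange factor of mortalin, with -0.96 ± 0.17 and Lonp1 with -0.85 ± 0.17 (3 of 6 with median scaling).

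The leading chaperones of the endoplasmic reticulum, Hspa5 and Hsp90b1, passed no test against eCSCs in either cardiomyocyte group. Hspa5, which codes for BiP, the HSP70 of this compartment, read 5.68, 5.82 and 5.80 in eCSCs, 5.07, 5.31 and 5.78 in YFP-positive and 5.72, 6.23 and 6.47 in adult cells. The 1 probe of Hspa5 was dim, the lowest detected signals of the arrays being 4.59 to 4.91, so small differences of Hspa5 are uncertain. Its differences of -0.38 ± 0.22 and 0.37 ± 0.22 from eCSCs did not pass the test, but they did without the third YFP-positive array (-0.58, adjusted p = 0.0369) and without the first adult array (0.58, adjusted p = 0.0277). The difference of -0.75 ± 0.22 between the cardiomyocytes (adjusted p = 0.0111) came with overlapping groups and was lost with median scaling (-0.21) and without the first YFP-positive (-0.60) or the third adult array (-0.59). Hsp90b1, which codes for GRP94, read 10.35, 10.26 and 10.19, then 10.30, 10.66 and 10.53, then 10.44, 9.93 and 10.39. None of its 3 comparisons passed, with differences of 0.23 ± 0.18, -0.01 ± 0.18 and 0.24 ± 0.18, although the adult difference was -0.76 with median scaling (adjusted p = 0.0133).

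The promoters of Hspa5, Hsp90b1 and Dnajc3 held an endoplasmic reticulum stress element, CCAAT followed by CCACG after 9 bases on either strand. That is 3 of 44 members (6.82%), against 0.137% of all genes in the table and 0.148% of those tested here. The stretches of Hspa5 (chr2:34772005-34772063, plus strand) and Hsp90b1 (chr10:86705513-86705571, minus strand) are shown with 1 element each in capitals, since these are the members named as the compartment's main chaperones. In Hsp90b1 the element reads on the opposite strand.
Hspa5: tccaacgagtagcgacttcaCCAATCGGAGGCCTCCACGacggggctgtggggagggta
Hsp90b1: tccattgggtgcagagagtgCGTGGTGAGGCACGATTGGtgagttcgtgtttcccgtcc
Dnajc3, the inhibitor of the kinase PERK known as P58IPK, did not pass against eCSCs either (-0.32 ± 0.22 and 0.42 ± 0.22), although the first was -0.91 with median scaling (adjusted p = 0.00506) and the second 0.57 with scaling on the probes detected on all 9 arrays (adjusted p = 0.0292).

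Among the J proteins of this compartment, Dnajc16 and Dnajb9 were the ones raised in both cardiomyocyte groups. Dnajc16, a membrane J protein, read 6.59, 6.38 and 6.21 in eCSCs, 8.45, 8.80 and 8.06 in YFP-positive and 9.50, 9.52 and 9.54 in adult cells. It was 4.12-fold and 8.74-fold above eCSCs, and lower in YFP-positive than in adult cells (-1.08 ± 0.20), a call that held under each scaling. A different probe of Dnajc16 gave smaller log2 differences from eCSCs in the same direction, 0.70 and 1.72. Dnajb9, which codes for ERdj4, the cochaperone that keeps BiP on the sensor IRE1, read 7.14, 7.38 and 6.61, then 8.46, 8.48 and 8.44, then 8.66, 8.44 and 7.96. Its differences from eCSCs were 1.42 ± 0.22 and 1.31 ± 0.22, and the adult one was lost with median scaling (0.45, adjusted p = 0.188).

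Dnajc18 ran the other way, with 6.99, 7.14 and 6.94 in eCSCs, 5.25, 5.59 and 5.13 in YFP-positive and 6.5, 6.31 and 5.94 in adult cells (-1.70 ± 0.19 and -0.77 ± 0.19). Dnajc10, which codes for ERdj5, a reductase that helps to degrade misfolded proteins, read 9.93, 10.40 and 9.21, then 9.34, 9.54 and 9.38, then 9.12, 9.04 and 9.40. Its groups overlapped, and the adult difference of -0.66 ± 0.25 (adjusted p = 0.0254) was lost without the first or second eCSC array (-0.62 and -0.38) or the first or second adult array (-0.63 and -0.59). The YFP-positive difference of -0.42 passed without the third eCSC array (-0.74, adjusted p = 0.00505) and with median scaling (-1.11, adjusted p = 0.000888). Dnajc25 read 5.26, 5.41 and 4.83 in eCSCs, 5.62, 5.38 and 5.41 in YFP-positive and 6.08, 6.00 and 6.34 in adult cells, where it was 0.97 ± 0.19 higher than in eCSCs (0.43 and lost with median scaling, adjusted p = 0.117). Dnajb12, which works with HSC70 in degradation at the membrane, was higher in adult cells than in eCSCs (0.90 ± 0.20, but 0.03 and lost with median scaling). Dnajc1 passed no test with quantile normalization, and its adult difference of -0.37 ± 0.21 from eCSCs was -0.88 with median scaling (adjusted p = 0.00226).

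Other folding genes of the endoplasmic reticulum were lower in the cardiomyocytes: 8 of 11 in YFP-positive and 7 of 11 in adult cells against eCSCs, with none higher by adjusted p or by an unadjusted p under 0.05. Over all genes, 38.6% and 39.4% were lower in these comparisons. Pdia4, a disulphide isomerase, differed by -0.96 ± 0.15 in YFP-positive and -1.40 ± 0.15 in adult cells, and Sil1, the exchange factor of BiP, by -1.35 ± 0.17 in YFP-positive cells. Of 7 regulators of the unfolded protein response, 4 were lower in YFP-positive cells and 5 in adult cells than in eCSCs, and 1, Herpud1, was higher in adult cells (0.65 ± 0.16). The lower ones included Ddit3, which codes for CHOP (-2.68 ± 0.25 and -3.17 ± 0.25), and Atf4 (-1.25 ± 0.18 and -3.40 ± 0.18). Atf4 and its target Ppp1r15a were the 2 higher in YFP-positive than in adult cells, 4.44-fold and 7.19-fold.

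The remaining J proteins, grouped here under cytosol and nucleus, were led by Dnajc28, whose function is little known and whose place in the cell was not examined. It read 4.71, 4.46 and 4.72 in eCSCs, where 1 array detected it, 8.47, 8.82 and 8.28 in YFP-positive and 9.93, 9.71 and 9.87 in adult cells, 14.8-fold and 36.8-fold above an eCSC level near the limit of detection. Between the cardiomyocytes it differed by -1.31 ± 0.18. A dimmer probe of Dnajc28, not detected on any eCSC array, gave smaller differences from eCSCs, 0.81 and 2.57. The size of the change thus differs between probes. Dnajc12, which binds aromatic amino acid hydroxylases, read 4.81, 4.24 and 4.50, then 5.45, 5.73 and 5.84, then 7.19, 6.77 and 6.48. Only 1 eCSC array detected it, so that its differences of 1.15 ± 0.21 and 2.29 ± 0.21 are from a level near the limit of detection. Dnajc27, a small GTPase with a J domain, read 4.87, 5.16 and 5.28 in eCSCs, 5.76, 5.38 and 5.51 in YFP-positive and 6.68, 6.81 and 6.76 in adult cells. The adult difference was 1.65 ± 0.17, while the YFP-positive one was 0.45 ± 0.17 (adjusted p = 0.0299). The latter was lost with median scaling (0.40) and without the first eCSC (0.33), the first YFP-positive (0.35) or the third YFP-positive array (0.47). A dimmer probe of Dnajc27 gave 0.38 in adult and -0.27 in YFP-positive cells against eCSCs, and neither passed the test. The result of Dnajc27 thus differs between probes.

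Dnajb2, a J protein of neurons and muscle that guides clients to the proteasome, read 8.87, 8.81 and 9.10 in eCSCs, 9.67, 10.02 and 9.56 in YFP-positive and 10.71, 10.73 and 10.70 in adult cells. The groups did not overlap. It was 1.77-fold above eCSCs in YFP-positive cells (0.12 on the log2 scale with median scaling, adjusted p = 0.693) and 3.45-fold in adult cells. Dnajb5 was undetected in eCSCs (4.29, 4.39 and 4.31), read 5.21, 5.48 and 5.01 in YFP-positive and 5.76, 6.13 and 6.57 in adult cells, at least 1.40-fold and at least 2.66-fold above eCSCs. Dnajb4 was instead highest in eCSCs: 5.72, 5.43 and 5.92 in eCSCs, 4.56, 4.45 and 4.33 in YFP-positive cells, where no array detected it, and 5.14, 5.25 and 5.32 in adult cells. It was at least 2.06-fold lower in YFP-positive cells than in eCSCs. The adult difference of -0.45 ± 0.17 (adjusted p = 0.0277) was lost without the first (-0.44) or the third (-0.34) eCSC array or the first (-0.41) or second (-0.46) adult array, and its sign turned with scaling on the probes detected on all 9 arrays (0.09).

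Dnajc2 and Dnajc24 were highest in the stem cells. Dnajc2, which codes for the ribosome-bound cochaperone zuotin, read 10.15, 9.65 and 9.54 in eCSCs, 8.26, 7.91 and 7.94 in YFP-positive and 7.80, 7.81 and 8.02 in adult cells, 3.34-fold and 3.74-fold lower. Dnajc24, needed for the diphthamide modification of elongation factor 2, read 9.04, 8.79 and 9.18, then 6.84, 7.0 and 7.09, then 7.46, 7.53 and 7.13, 4.07-fold and 3.08-fold lower. Both kept these calls under the 4 scalings. Between the cardiomyocytes neither passed (0.16 ± 0.19 and -0.40 ± 0.18), although Dnajc24 did without the third adult array (-0.52, adjusted p = 0.0402).

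Of the members not yet named, Dnajc4 was higher in both cardiomyocyte groups than in eCSCs (0.56 ± 0.21 and 1.5 ± 0.21). With median scaling its YFP-positive difference was 0.07 and lost, and with no normalization its adult difference was 0.52 and lost. Dnajc17 was lower in YFP-positive cells than in eCSCs under each of the 4 scalings (-1.0 ± 0.18), while its difference of -0.62 ± 0.18 from adult cells was -0.10 and lost with median scaling. Dnaja2 was higher in adult cells than in eCSCs (0.73 ± 0.22), a difference that turned to -0.10 with median scaling. Dnajc7 was lower in YFP-positive cells than in eCSCs (-0.63 ± 0.26, adjusted p = 0.0389), and missed the threshold with scaling on the probes detected on all 9 arrays (-0.55, adjusted p = 0.0585). Dnajc5, the cysteine string protein, and Dnajc8 passed no test with quantile normalization, with differences between -0.34 and 0.26. With median scaling both were lower in adult cells than in eCSCs (-1.10 and -1.07) and in YFP-positive cells than in eCSCs (-0.79 and -0.90). Dnajb6, which blocks the aggregation of polyglutamine, passed none with the brightest of its 4 detected probes (8.51, 8.69 and 8.80 on average), and its adult difference of 0.29 from eCSCs turned to -0.63 with median scaling (adjusted p = 0.0397). A pair of its other probes was lower in adult cells than in eCSCs (-2.21 and -1.35) and higher in YFP-positive than in adult cells (1.26 and 1.03), so its result differs between probes. Among the 18 members with several detected probes, opposite calls appeared only for Hspa8 in adult cells against eCSCs.

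**Figure D5:**
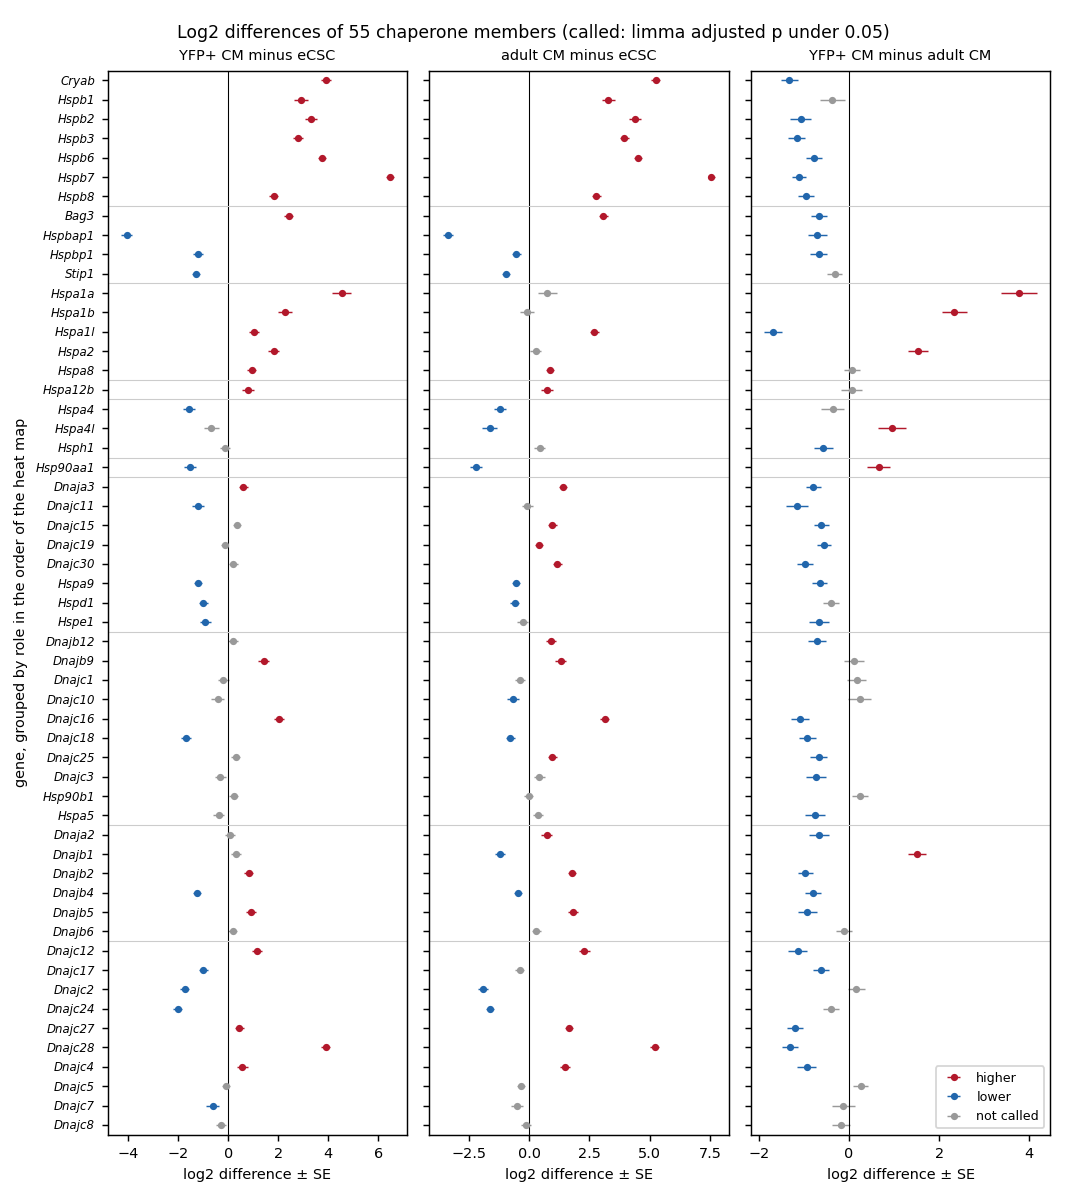
Log2 difference ± SE (x axis) of each member in the 3 comparisons, in the row order of the heat map. Red and blue mark limma adjusted p under 0.05, higher and lower, and grey the rest, and values against a group without detection are fitted differences, not bounds. The third panel has 6 red and 33 blue points, with Hspa1a at 3.76 and Hspa1l at -1.68 as its ends.

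The chaperonin TRiC and prefoldin, which fold actin and tubulin and are not among the members, gave a comparison in the cytosol. Of 13 subunits, 11 were lower than in eCSCs in YFP-positive cells and 11 in adult cells, Cct6a with -2.33 ± 0.20 and -2.46 ± 0.20, Pfdn4 with -2.20 ± 0.21 and -2.47 ± 0.21 and Cct3 with -1.73 ± 0.17 and -1.62 ± 0.17. Over all genes, 38.6% and 39.4% were lower. With scaling on the probes detected on all 9 arrays the counts of subunits were 8 and 6, against 28.5% and 29.3% of all genes. Between the cardiomyocytes limma called 0 of 13, and 0 had an unadjusted p under 0.05, with a median difference of -0.10. Under the other scalings none or 1 was called there.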

How the data were processed

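RNA from 9 samples was hybridised to 9 single-colour Illumina bead arrays, 3 in each group. Per the file headers, the deposited intensity values are bead signals per probe and not normalized; the lowest signal on each array shows that no background was subtracted. The deposited fraction beside each intensity is headed as a detection p-value but rises with the signal, so the detection p was taken as 1 minus that value. The authors' normalized values, on a log2 scale judging by their match to the signals, served as an alternative, and their normalization is not given in the sources used here. Lumi 2.10.0 and R 2.15.3 appear, with no role stated, per the submitters' processing notes.

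In R 4.3.3 with limma 3.58.1, signals were background corrected by normexp from the detection p (nec, offset 16), quantile normalized and taken to log2. Of 45281 probes, 34885 had a single gene symbol in the platform annotation, 18 several and 10378 none. Symbols were updated from RefSeq GRCm38.p6, 34807 through Entrez numbers and 11 through accessions, and 67 were kept as given. Probes detected at a threshold of 0.05 in every array of 1 or more groups were kept (18180 probes), and the brightest kept probe stood for its gene. This gave 10024 genes of 19053 with a probe. limma (lmFit and eBayes) fitted the 3 groups on all 9 arrays, with Benjamini-Hochberg adjustment over the 10024 genes and a threshold of 0.05, and every adjusted p in the text is from such a fit. The method was tested on simulated data. The filter keeps a gene that is detected in the brighter group alone, so such a gene had to differ; 45 of 55 members passed on all 9 arrays.

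The members and the gene lists were chosen with earlier results of these data known. Values on all arrays are given for up to 4 members of each role with the largest differences, for the 10 largest rises and falls of each comparison, and for well-known chaperones; of each other list, up to 3 genes with the smallest adjusted p are named. Alternatives were no background correction, 3 other scalings, other probe filters, the mean of the detected probes, the authors' normalized values, fits on only the groups compared, array weights, the replicate number as a block, and leaving out each array. Replicate numbers were not used to pair samples, since the labels give no shared source and same-numbered arrays did not deviate together (9 correlations from -0.064 to 0.12). Protein sequences were not used here.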

Additional observations from a re-analysis of the deposited data

How the results depend on the processing

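For 43 of the 55 members, 2550 values were computed over the alternatives: 2368 kept their direction and their side of the threshold, 102 lost the call in the same direction, 43 gained one, and 37 turned sign, 30 of them uncalled on both sides. The cause was not tested. Median scaling gave 17 members higher and 23 lower in adult cells than in eCSCs, and 19 called, 13 of them lower, in YFP-positive against adult cells. No normalization gave 16 higher and 23 lower, and 15 called with 9 lower. With median scaling on the probes detected on all 9 arrays, 9 members were lower in adult cells than in eCSCs. Keeping only probes detected on all 9 arrays, which tests fewer genes, left 45 members: 15 higher and 14 lower in YFP-positive cells than in eCSCs (29.1% and 41.4% of all genes so tested), and 3 higher and 26 lower than in adult cells (19.7% and 31.7%). Among the called differences that turned sign, Dnaja3 (YFP-positive against eCSCs) turned to -0.10 with median scaling and -0.16 with no normalization, and Hspa12b (adult against eCSCs) to -0.10 and -0.23. Scaling on the probes detected on all 9 arrays turned 8 differences, 5 of them uncalled on both sides; the other 3, adult against eCSCs, were Dnajb4 at 0.09, Hspa1b at 0.99 (called only there) and Hspa9 at 0.03. Leaving out 1 array at a time gave 35 to 38 calls for YFP-positive cells against eCSCs (21 to 23 higher, 14 to 16 lower), 38 to 42 for adult cells against eCSCs (25 to 28 higher, 12 to 16 lower) and 33 to 39 between the cardiomyocytes (4 to 6 higher, 28 to 33 lower). Without the second YFP-positive array the counts were 38, 41 and 37. Same-numbered samples share only a number, and the fit with the replicate number as a block gave 39 calls (23 higher, 16 lower), 40 calls (26 and 14) and 39 calls (6 and 33). Undetected probes give only a bound, and 3 arrays a group limit the precision of small differences.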
